A study of Mus musculus with 6 samples.

Results

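Cytochrome P450 enzymes of families 1 to 3 and the receptors Nr1i2, Nr1i3 and Ahr were examined in mouse colonic mucosa with and without Tlr2, which senses bacterial lipoproteins at the cell surface. Genes were taken by family symbol and matched to array probes by gene name or transcript accession. Of 63 such genes in the RefSeq gene table, 49 had at least 1 probe (46 P450 genes and 3 receptors, 67 probes), of 17314 named genes on the arrays. A total of 40 (37 P450 genes and 3 receptors) were well above background on at least 2 of 4 arrays in the channel of either genotype, of 14698 genes in all, and 14 genes, among them Cyp3a41b, Cyp3a57 and Cyp3a59, were matched by no probe and were not analysed here. Both groups were C57BL/6 mice at 90 postnatal days, Tlr2-/- mice and their wild-type counterparts, and mucosa had been sheared off with a glass slide and frozen. Each of 4 expression arrays held 1 knockout and 1 wild-type sample in 2 dyes, and arrays are named by the number of the knockout sample, pairs 1, 2, 4 and 5. The knockout sample carried Cy3 on pairs 1 and 2 and Cy5 on pairs 4 and 5. Sex, the design of the knockout allele and whether each sample was a separate animal are not given in the sources used here, so p-values measure the spread between these samples, which may be technical.

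P450 enzymes are haem proteins of the endoplasmic reticulum that add oxygen to drugs, plant compounds, steroids and bile acids, and they draw electrons from the reductase Por. In gut and liver their transcription is set by ligand-activated factors. PXR, the product of Nr1i2, binds many drugs and bile acids, pairs with RXR and induces Cyp3a genes. CAR, the product of Nr1i3, is best known for inducing Cyp2b10, and AHR pairs with ARNT and induces Cyp1a1 in response to dietary and microbial indoles.

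The knockout was visible on every array. The normalized log2 signal of the Tlr2 probe was 7.06, 6.54, 6.87 and 7.70 in knockout samples of pairs 1, 2, 4 and 5, against 11.47, 11.85, 12.37 and 11.90 in wild-type samples. Its mean log2 ratio of knockout over wild type was -4.86 ± 0.64 (SD, n = 4), yet the limma adjusted p was 0.315, and limma called 0 of 14698 genes at an adjusted p of 0.05, with 1189 at an unadjusted p under 0.05. Pair 1 stood apart, since its ratios over 14687 genes had Pearson correlations of -0.21, -0.421 and -0.107 with pairs 2, 4 and 5, which correlated at 0.425 to 0.568 with each other. These are correlations across genes, which are not independent replicates. Spots well above background made up 67.7% to 71.9% of the knockout channels and 63.3% to 76.5% of the wild-type channels. All 9 epithelial and all 12 absorptive colonocyte markers were detected, and 7 of each list were saturated on an array. All 12 small intestinal enterocyte and 6 of 9 hepatocyte markers passed the same filter, so detection alone does not identify the tissue.

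Of the 7 genes lower in knockout mucosa on all 4 arrays, 4 belonged to the Cyp3a subfamily, the main drug- and steroid-oxidising P450 enzymes. The receptor gene Nr1i2 was another, and its part in the Cyp3a ratios was not tested. Signals of Cyp3a44, Cyp3a25, Cyp3a16, Cyp3a41a and Nr1i2 were lower in knockout than in wild-type mucosa on all 4 arrays, whereas Cyp3a11 and Cyp3a13 had arrays on both sides of 0. By limma, 0 of the 40 genes were called, beside 0% of all genes. At an unadjusted p under 0.05, 5 were lower, beside 4.24% of all genes, and 1 was higher, beside 3.85%, and the adjusted p of each of the 6 was 0.595. A second criterion was the submitters' fold rule: 2 or more arrays past 1.6-fold, and none of the others on the opposite side. By that rule 3 of the 40 genes were lower (Cyp3a44, Cyp3a25 and Cyp3a16), beside 0.701% of all genes, and 0 were higher, beside 0.762%, so that 1.46% of all genes passed in either direction. The same direction on all 4 arrays was found for 7 lower genes, beside 8.41% of all genes, and 1 higher gene, beside 7.17%. The levels of the 2 genotypes did not overlap for 4 lower genes, all Cyp3a, beside 2.42% of all genes, and for 1 higher gene, Cyp2c70, beside 2.22%. With 4 arrays the smallest 2-sided p of an exact sign-flip test is 0.125. In scraped tissue, fewer cells of a type and less RNA per cell cannot be told apart.

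**Figure D1:**
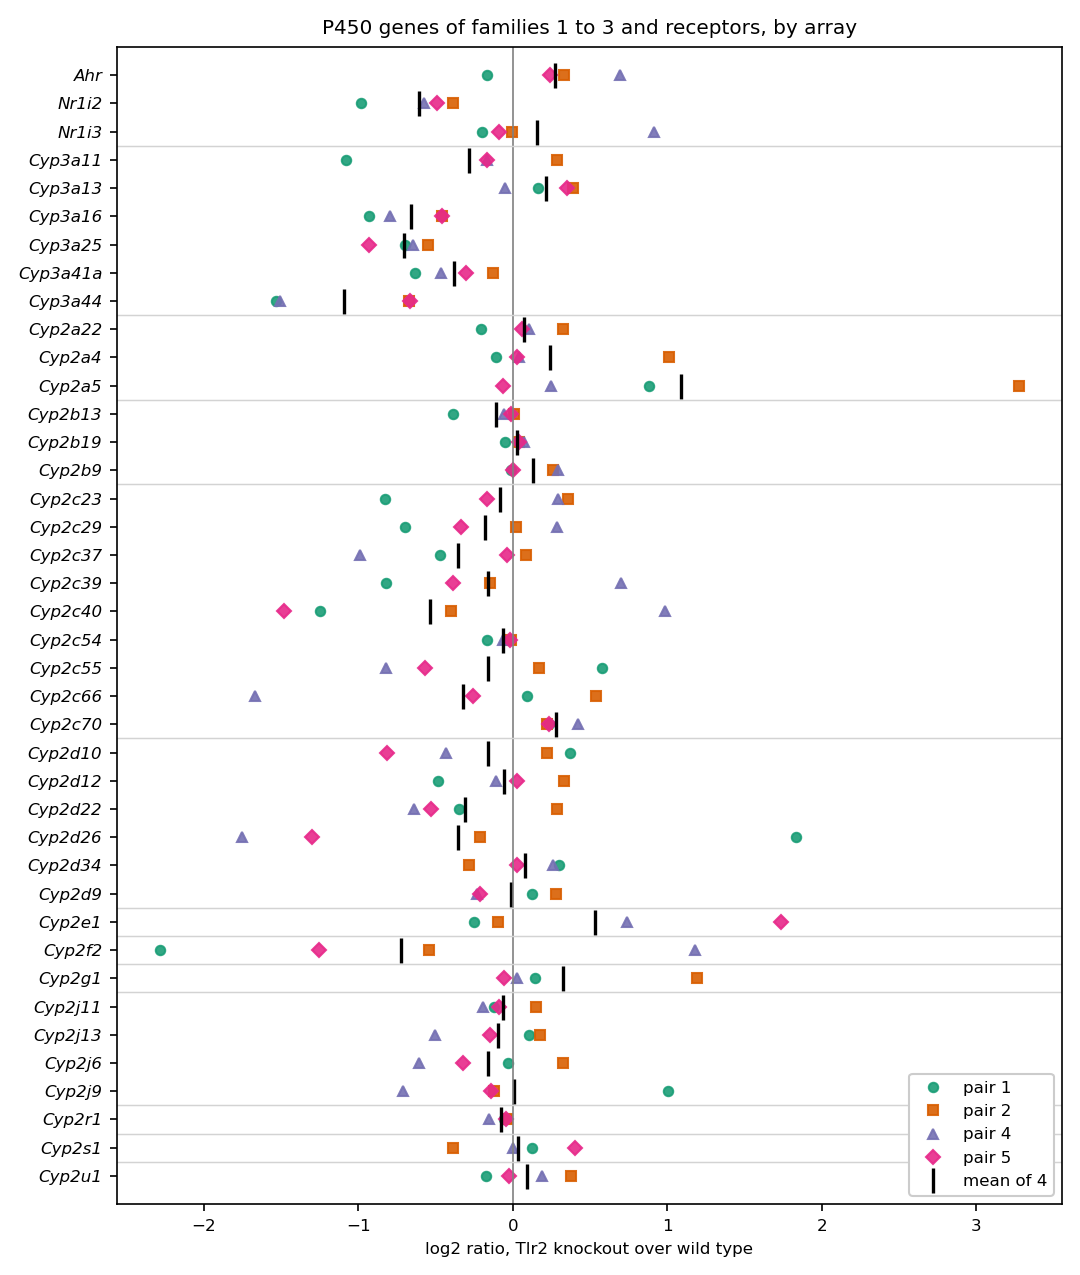
Log2 ratio of Tlr2 knockout over wild type on each array for the 40 detected genes, grouped by receptor and subfamily, with the mean of 4 arrays as a black bar. All 4 points lie left of 0 for Nr1i2, Cyp3a44, Cyp3a25, Cyp3a16, Cyp3a41a, Cyp2r1 and Cyp2c54, and right of 0 for Cyp2c70.

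Among the receptors, Nr1i2 was lower in every pair. Its log2 signal was 11.00, 11.56, 11.99 and 11.90 in knockout samples of pairs 1, 2, 4 and 5, against 11.99, 11.95, 12.57 and 12.39 in wild-type samples. The pairs differed in level, so the highest knockout sample lay just above the lowest wild-type sample. The log2 ratios were -0.98, -0.39, -0.58 and -0.49, with a mean of -0.61 ± 0.26 (SD, n = 4), a 1.53-fold lower level (limma unadjusted p = 0.0102, adjusted p = 0.595). Nr1i2 fell short of the fold rule, as 1 array alone passed 1.6-fold. The mean was -0.69 on the arrays with the knockout in Cy3 and -0.53 on those with it in Cy5, and the mean of the other 3 pairs without pair 1 was -0.48.

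The other receptors showed no shared direction. Nr1i3 had log2 signals of 7.37, 7.39, 8.52 and 7.54 in knockout samples, against 7.57, 7.39, 7.60 and 7.63 in wild-type samples. Its 4 wild-type samples lay close together and 1 knockout sample, that of pair 4, lay far above the rest, so the mean log2 ratio of 0.16 ± 0.51 (SD, n = 4) was -0.10 over the other 3 pairs. Ahr had log2 signals of 9.41, 9.55, 9.87 and 9.91 in knockout samples, against 9.58, 9.21, 9.18 and 9.67 in wild-type samples. The groups overlapped, and the mean log2 ratio was 0.28 ± 0.35 (SD, n = 4, limma adjusted p = 0.659).

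Cyp3a44 is a steroid- and drug-oxidising enzyme described as female-predominant in mouse liver, and it had the lowest mean ratio of the 40 genes. Its log2 signal was 6.86, 6.90, 6.39 and 7.03 in knockout samples of pairs 1, 2, 4 and 5, against 8.40, 7.57, 7.90 and 7.70 in wild-type samples. Every knockout value lay below every wild-type value. The log2 ratios of -1.53, -0.67, -1.51 and -0.67 averaged -1.10 ± 0.49 (SD, n = 4), a 2.14-fold lower level (limma unadjusted p = 0.0081, adjusted p = 0.595). A second probe gave -1.60, -1.05, -1.51 and -0.72, with a mean of -1.22 ± 0.41 (SD, n = 4). The mean was -1.10 with the knockout in Cy3 and -1.09 with it in Cy5, so the ratio did not follow the dye.

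Cyp3a25 had the smallest spread of the Cyp3a genes lower on all arrays with the reported processing. With Agilent's processed signals it had the largest, an SD of 1.08 against 0.37 to 0.94. Its log2 signal was 6.74, 6.71, 6.36 and 6.96 in knockout samples, against 7.44, 7.26, 7.002 and 7.89 in wild-type samples, and the groups did not overlap. The ratios of -0.70, -0.55, -0.64 and -0.93 averaged -0.71 ± 0.16 (SD, n = 4), a 1.63-fold lower level (limma unadjusted p = 0.0020, adjusted p = 0.595). A dimmer probe was well above background on 0 of 4 knockout and 3 of 4 wild-type arrays. Its measured means were 6.49 in knockout and 6.73 in wild-type samples, and the groups overlapped. The bound for this probe, 1.18-fold higher in wild type, was no more than this measured ratio. Such a bound sets the bright group's mean against the higher of the dim probe's own signal and the lowest signal well above background.

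Cyp3a16, known as a perinatal liver form, had log2 signals of 6.82, 6.79, 6.55 and 6.88 in knockout samples, against 7.76, 7.25, 7.34 and 7.35 in wild-type samples. The groups did not overlap, and the mean log2 ratio was -0.66 ± 0.24 (SD, n = 4, limma adjusted p = 0.595). Cyp3a41a, a close copy of Cyp3a44, had 6.86, 6.92, 6.87 and 7.03 in knockout samples, against 7.49, 7.05, 7.34 and 7.33 in wild-type samples. The margin was narrow, with the highest knockout sample just under the lowest wild-type sample, and the mean log2 ratio was -0.38 ± 0.22 (SD, n = 4, limma adjusted p = 0.595).

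Cyp3a11 and Cyp3a13 did not share this direction. Cyp3a11, the main PXR-inducible enzyme of mouse liver, had log2 signals of 7.75, 8.22, 7.88 and 7.91 in knockout samples, against 8.83, 7.94, 8.05 and 8.08 in wild-type samples. One wild-type sample, that of pair 1, was high, and the mean log2 ratio of -0.28 ± 0.57 (SD, n = 4) was -0.02 over the other 3 pairs. Cyp3a13, the form best known from intestine, had 14.84, 14.27, 14.50 and 14.98 in knockout samples, against 14.68, 13.88, 14.55 and 14.63 in wild-type samples. Its ratio was above 0 in 3 of 4 pairs, with a mean of 0.21 ± 0.20 (SD, n = 4, limma adjusted p = 0.667), and differences between Cyp3a genes were not tested.

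**Figure D2:**
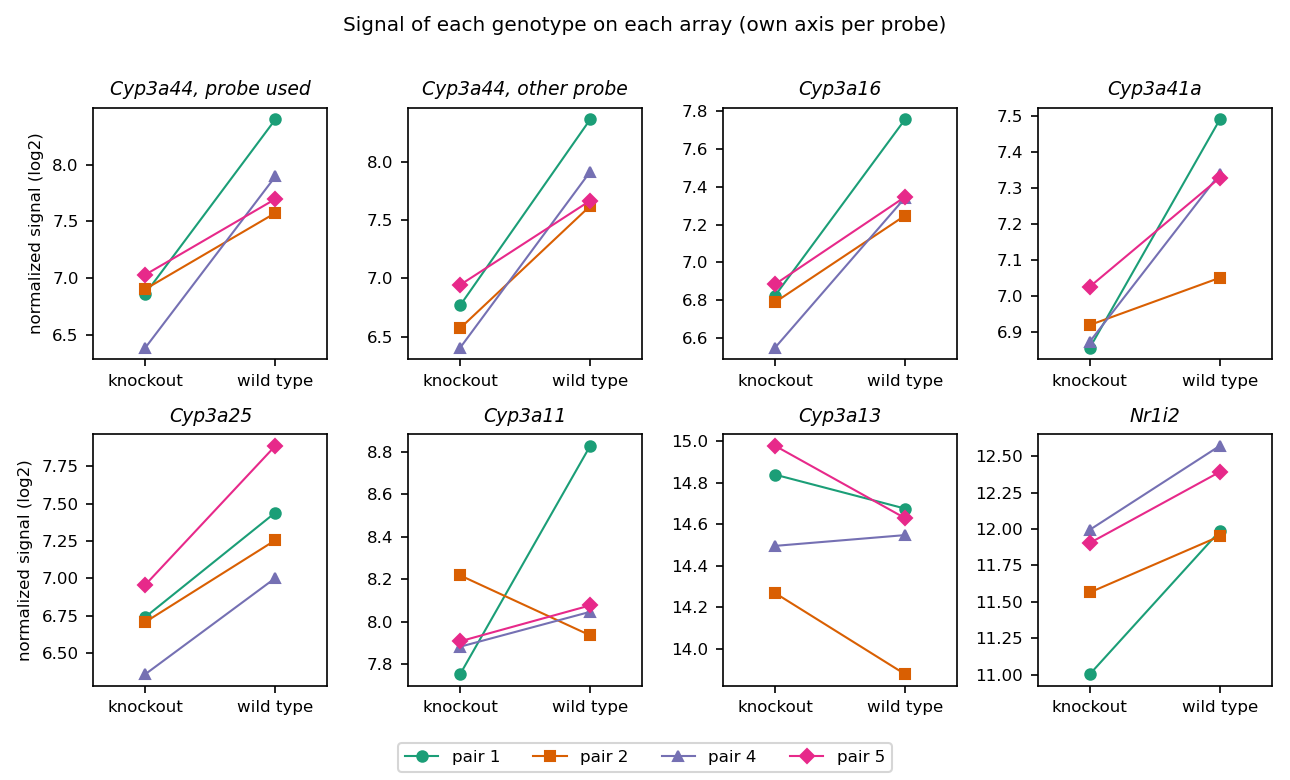
Normalized log2 signal in knockout (left) and wild-type (right) samples for both Cyp3a44 probes, the other detected Cyp3a genes and Nr1i2, with a line joining the samples of each array and an own axis per probe. Knockout values lie below all wild-type values for Cyp3a44, Cyp3a16, Cyp3a41a and Cyp3a25, and lines cross for Cyp3a11.

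Over pairs 2, 4 and 5, without pair 1, the mean log2 ratio was -0.95 for Cyp3a44, -0.71 for Cyp3a25, -0.57 for Cyp3a16 and -0.30 for Cyp3a41a. The direction held, but none of the 4 then passed the fold rule, which only Cyp2d26 did. Knockout signals of these 4 genes were dim, with mean log2 signals of 6.80 for Cyp3a44, 6.69 for Cyp3a25, 6.76 for Cyp3a16 and 6.92 for Cyp3a41a. In knockout samples Cyp1a1, not well above background on any array, had a mean of 6.32, and Cyp3a13 had 14.65. The size of the 4 ratios also depended on the processing. With normexp and no offset, a setting added after seeing the data, the mean log2 ratio was -1.81 for Cyp3a44, -1.33 for Cyp3a25, -1.19 for Cyp3a16 and -0.67 for Cyp3a41a. With Agilent's processed signals, which differ in several steps, it was -2.61 for Cyp3a44, -2.39 for Cyp3a25, -1.99 for Cyp3a16 and -1.09 for Cyp3a41a. For Nr1i2 the same settings gave -0.62 and -0.58. In the authors' deposited table the average linear ratio of knockout over wild type was 0.188 for Cyp3a44, 0.302 for Cyp3a16, 0.373 for Cyp3a25 and 0.485 for Cyp3a41a.

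**Figure D3:**
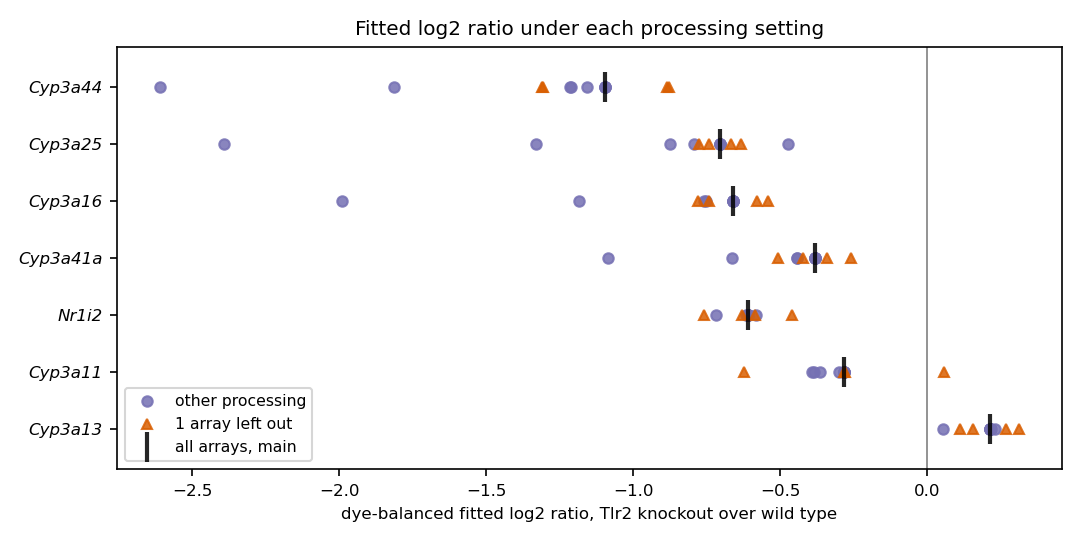
Fitted log2 ratio of knockout over wild type for 6 Cyp3a genes and Nr1i2 with all arrays (black bar, equal to the mean), with other processing (circles) and with 1 array left out (triangles). With 3 arrays the fit weights the dye orientations equally, so Cyp3a11 lies at 0.06 without pair 1, where the plain mean is -0.02, and Cyp3a44 reaches -2.61 with processed signals.

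The Cyp3a genes sit together on chromosome 5 in the RefSeq gene table of GRCm38.p6, in the order Cyp3a57, Cyp3a16, Cyp3a41b, Cyp3a41a, Cyp3a44, Cyp3a11, Cyp3a25 and Cyp3a59, with Cyp3a13 apart. Cyp3a11 thus lies between Cyp3a44 and Cyp3a25. The 250 bases before the annotated start (RefSeq, GRCm38.p6) are printed for the Cyp3a genes lower on all arrays and for Cyp3a11. They show which are near copies. Capitals mark the hexamers AGGTCA and AGTTCA, on either strand, which are core elements of sites bound by PXR, CAR and related receptors.
Cyp3a44, chr5:145805875-145806124, minus strand: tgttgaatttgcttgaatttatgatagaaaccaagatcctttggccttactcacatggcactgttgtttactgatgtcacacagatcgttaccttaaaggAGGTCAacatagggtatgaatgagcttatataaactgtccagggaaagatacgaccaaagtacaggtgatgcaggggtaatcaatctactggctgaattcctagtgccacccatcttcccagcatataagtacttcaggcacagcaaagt
Cyp3a41a, chr5:145720137-145720386, minus strand: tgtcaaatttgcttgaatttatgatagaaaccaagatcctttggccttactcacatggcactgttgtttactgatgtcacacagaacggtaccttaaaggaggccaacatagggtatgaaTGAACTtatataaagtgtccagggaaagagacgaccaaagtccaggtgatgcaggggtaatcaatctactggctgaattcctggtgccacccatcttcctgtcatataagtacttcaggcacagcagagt
Cyp3a16, chr5:145469724-145469973, minus strand: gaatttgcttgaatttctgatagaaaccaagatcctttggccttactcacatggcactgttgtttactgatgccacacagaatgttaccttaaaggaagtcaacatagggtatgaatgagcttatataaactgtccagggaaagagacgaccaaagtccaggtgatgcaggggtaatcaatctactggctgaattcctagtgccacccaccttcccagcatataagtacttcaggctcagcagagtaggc
Cyp3a25, chr5:146009619-146009868, minus strand: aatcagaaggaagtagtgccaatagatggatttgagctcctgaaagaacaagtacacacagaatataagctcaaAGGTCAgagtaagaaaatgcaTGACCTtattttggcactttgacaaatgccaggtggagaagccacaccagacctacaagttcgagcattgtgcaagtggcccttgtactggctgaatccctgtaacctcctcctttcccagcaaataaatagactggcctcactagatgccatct
Cyp3a11, chr5:145879855-145880104, minus strand: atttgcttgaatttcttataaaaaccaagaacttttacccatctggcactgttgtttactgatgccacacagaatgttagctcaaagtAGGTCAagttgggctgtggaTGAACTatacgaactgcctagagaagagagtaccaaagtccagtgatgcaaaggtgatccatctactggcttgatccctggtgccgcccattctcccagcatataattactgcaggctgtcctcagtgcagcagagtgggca
The windows of Cyp3a44, Cyp3a41a and Cyp3a16 were 92.4% to 94.4% identical in global alignment, that of Cyp3a11 was 76% to 79.6% identical to them, and that of Cyp3a25 was 44% to 51.6% identical to the other 4. AGGTCA occurred 1 time in Cyp3a44, 2 times in Cyp3a25 and 1 time in Cyp3a11, and AGTTCA 1 time each in Cyp3a41a and Cyp3a11. Cyp3a16, Cyp3a13 and Nr1i2 held neither, and Cyp2c70, which was higher on all arrays, held AGGTCA 1 time. Of 32851 promoter windows of this length, 14% held AGGTCA, 11.8% held AGTTCA and 24.2% held either. Cyp3a25 has 2 starts in the table, and 1 is shown. Because Cyp3a44, Cyp3a41a and Cyp3a16 are near copies, their probes may share transcripts, which was not tested, and these 3 genes are not independent measurements.

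Markers of other sources of Cyp3a transcript were measured beside these genes. Of 9 hepatocyte markers 6 were kept (Fga, Serpina1a and Serpina1b were not), with a summed linear signal of 3421 to 6597 in knockout and 3886 to 5666 in wild-type samples, and median log2 ratios of -0.01, -0.02, 0.11 and -0.05 in pairs 1, 2, 4 and 5. All 12 small intestinal enterocyte markers were kept, with medians of -0.03, 0.15, -0.13 and -0.55. Their summed signal was 57712 to 101325 in knockout and 59572 to 105690 in wild-type samples. Fabp2 of this list was saturated on 3 knockout and 4 wild-type arrays, so the sum is a poor measure of a difference. Neither list was low on all 4 arrays. Of the 10 marker lists, only that of T and NK cells had a median below 0 on every array, at -0.03, -0.67, -1.31 and -0.23, with all 9 markers kept and a summed signal of 1694 to 3100 in knockout and 2999 to 5880 in wild-type samples. Its genes Ccl5, Gzma and Gzmb were lower by the fold rule, beside 0.701% of all genes. Lower on all arrays were 4 of 9, beside 8.41% of all genes. In pair 1, Cd7, Nkg7, Cd8a and Cd3g were above 0, at 0.85, 0.71, 0.56 and 0.21. Cd3e and Cd2 had means near 0, at -0.08 and -0.05. The part of these lists in the Cyp3a and Nr1i2 ratios was not tested.

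In the Cyp2c subfamily 9 genes were detected, and Cyp2c70 alone was higher on all arrays. Cyp2c70 makes muricholic bile acids in mouse liver. Its log2 signal was 8.19, 8.09, 8.27 and 8.27 in knockout samples of pairs 1, 2, 4 and 5, against 7.96, 7.87, 7.85 and 8.04 in wild-type samples. The groups did not overlap, but the difference was small, at 0.28 ± 0.10 on the log2 scale (SD, n = 4), or 1.21-fold (limma unadjusted p = 0.0354, adjusted p = 0.595). Cyp2c54 was lower on all arrays, with a mean log2 ratio of -0.06 ± 0.07 (SD, n = 4), and its probe was well above background in 1 knockout and 2 wild-type samples.

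Cyp2c55, an enzyme of mouse colon that oxidises arachidonic acid, had log2 signals of 15.99, 15.63, 15.14 and 15.64 in knockout samples, against 15.41, 15.46, 15.96 and 16.21 in wild-type samples. Its spot was saturated on 1 knockout and 1 wild-type array. The ratio was above 0 in pairs 1 and 2 and below 0 in pairs 4 and 5, so it followed the dye orientation, with means of 0.37 with the knockout in Cy3 and -0.69 with it in Cy5, and the overall mean was -0.16 ± 0.65 (SD, n = 4, limma adjusted p = 0.751). The saturated spots were those of the wild-type sample of pair 1 and the knockout sample of pair 5, and the other pairs, 2 and 4, gave log2 ratios of 0.17 and -0.82. Cyp2c37 had a mean log2 ratio of -0.35 ± 0.49 with its brightest probe and -0.04 ± 0.13 with its other probe (SD, n = 4).

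Several Cyp2 genes had ratios that differed widely between pairs. Cyp2a5, a coumarin and nicotine hydroxylase, had log2 signals of 7.10, 9.22, 6.52 and 6.31 in knockout samples of pairs 1, 2, 4 and 5, against 6.22, 5.94, 6.27 and 6.38 in wild-type samples. The knockout sample of pair 2 was far above all others, with a log2 ratio of 3.28, and the mean was 1.09 ± 1.51 (SD, n = 4, limma adjusted p = 0.621), against 0.36 over the other 3 pairs. Its close relative Cyp2a4, a steroid hydroxylase, had log2 ratios of -0.11, 1.01, 0.04 and 0.03 with the brightest probe. A dim Cyp2a4 probe was well above background in 2 knockout and 0 wild-type samples, with measured means of 6.85 in knockout and 6.23 in wild-type samples, and a bound of at least 1.51-fold higher in knockout samples. Its log2 ratios were 0.37, 2.20, -0.04 and -0.02, so the groups overlapped and pair 2 set the bound. Cyp2g1, an olfactory P450, shared the high value of pair 2, at 1.19 against -0.06 to 0.14 in the other pairs. Its probe was well above background in 1 knockout and 2 wild-type samples, and that of Cyp2a5 in 3 knockout and 2 wild-type samples. A second Cyp2g1 probe, which did not pass the filter, gave 0.39 in pair 2. Cyp2a4 and Cyp2a5 are near copies, so their probes may share transcripts.

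Cyp2e1, which oxidises ethanol and acetone, had log2 ratios of -0.25, -0.10, 0.74 and 1.74. They followed the dye orientation, with means of -0.17 with the knockout in Cy3 and 1.24 with it in Cy5. Its probe was well above background in 2 knockout and 3 wild-type samples. The median log2 ratios of the 9 detected of 10 adipocyte markers were -0.14, 0.00, 0.68 and 1.97, also higher with the knockout in Cy5. Their summed signal was 14442 to 58411 in knockout and 12670 to 20934 in wild-type samples, and Lep was not kept. Lipe departed from the median, at 0.37, -0.16, -0.25 and -0.06, as did Cidec (-0.97) and Pparg (-0.32) in pair 4. The other detected markers were above 0 in pairs 4 and 5. The part of these markers in the Cyp2e1 ratio was not tested. Cyp2f2, known for bioactivating naphthalene in lung, had ratios of -2.28, -0.54, 1.18 and -1.26, and Cyp2c40, an arachidonic acid oxidase, had -1.25, -0.40, 0.98 and -1.48. Cyp2d26 ran from 1.83 in pair 1 to -1.76 in pair 4, with means of 0.81 with the knockout in Cy3 and -1.53 with it in Cy5. The median log2 ratio of 8 detected of 9 Hox genes of paralog groups 10 to 13, which mark position along the gut, was -1.48, 0.50, 1.21 and 0.50, with a summed signal of 3652 to 27304 in knockout and 8275 to 23346 in wild-type samples (Hoxc10 was not kept). That of 14 of 19 Hox genes of groups 4 to 9 was 0.96, -0.30, -0.76 and 0.12. Their part in these ratios was not tested.

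**Figure D4:**
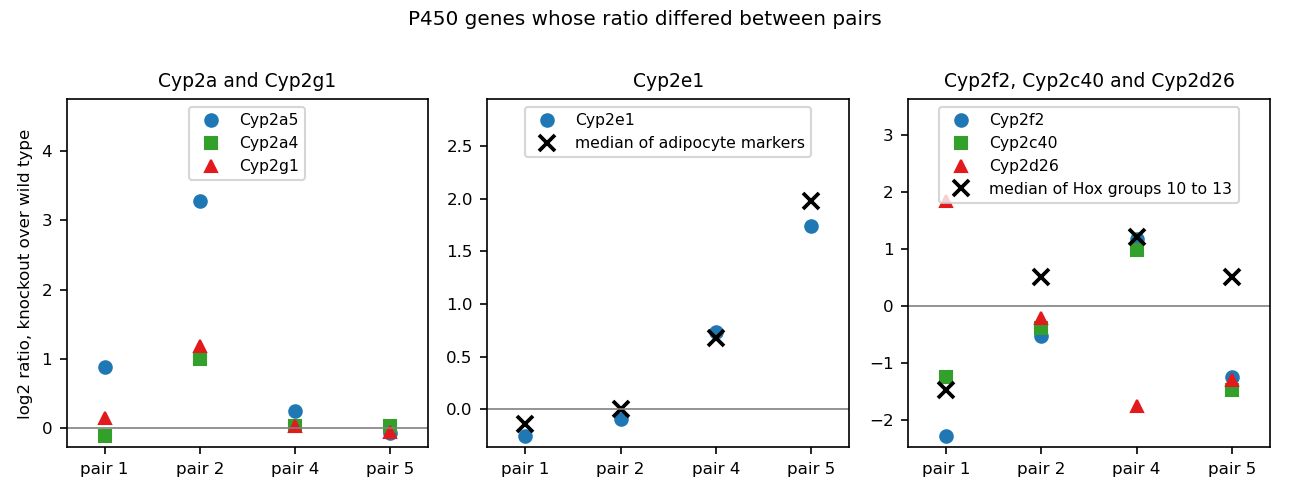
Log2 ratio of knockout over wild type by pair for Cyp2a and Cyp2g1 (left), Cyp2e1 with the median of adipocyte markers (middle) and Cyp2f2, Cyp2c40 and Cyp2d26 with the median of Hox genes of groups 10 to 13 (right). Cyp2a5 reaches 3.28 in pair 2 alone, and Cyp2e1 and the adipocyte median are both highest in pair 5.

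The remaining Cyp2 genes showed no shared direction. Cyp2c66 averaged -0.32 ± 0.96 with -1.67 in pair 4, Cyp2c39 -0.16 ± 0.64 with ratios from -0.82 to 0.70, and Cyp2j9 0.01 ± 0.72 with ratios from -0.71 to 1.01 (SD, n = 4). Cyp2r1, a vitamin D hydroxylase, was lower on all arrays, with a mean log2 ratio of -0.07 ± 0.05 (SD, n = 4). Cyp2d22 averaged -0.31 ± 0.41 and Cyp2d10 -0.16 ± 0.56 (SD, n = 4), with arrays on both sides of 0, and a second Cyp2d10 probe gave -0.20 ± 0.79. The 3 Cyp2b genes detected had means from -0.11 to 0.13, and the 4 Cyp2j genes from -0.16 to 0.01.

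The best known targets of AHR and CAR were too dim to compare. Cyp1a1 was well above background on 0 of 4 arrays in either genotype, with log2 signals of 6.22, 6.28, 6.41 and 6.37 in knockout samples and 6.40, 6.38, 6.24 and 6.33 in wild-type samples. Cyp2b10 was well above background in 1 knockout and 0 wild-type samples, with mean log2 signals of 6.37 in knockout and 6.30 in wild-type samples, and the groups overlapped. Cyp1a2, Cyp1b1, Cyp2a12, Cyp2ab1, Cyp2b23, Cyp2c38 and Cyp2j5 did not pass the filter either.

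Genes that work with these enzymes showed no member past limma's threshold or the fold rule in any of 8 lists. Over all genes, 7.17% were higher and 8.41% lower on all arrays. Of 8 P450 partners and haem synthesis genes, 3 were higher on all arrays and 0 lower, with a median log2 ratio of 0.21 beside -0.01 over all genes tested. They included Pgrmc1, a haem-binding P450 partner, at 0.28 ± 0.08, and Fech, the last enzyme of haem synthesis, at 0.38 ± 0.24 (SD, n = 4). Of 18 receptor partners and related receptors, 1 was higher and 1 lower on all arrays. Rxra, the partner of PXR and CAR, averaged 0.29 ± 0.12, and Nr1h3, an oxysterol receptor, -0.22 ± 0.16 (SD, n = 4). Arnt, the partner of AHR, averaged 0.63 ± 0.57 with pair 1 below 0 (SD, n = 4). With the mean of all probes in place of the brightest, the log2 ratio was smaller for Rxra (0.13), Arnt (0.33) and Fech (0.26). That of Pgrmc1 and Nr1h3 was unchanged. Of 6 other AHR-responsive genes, 1 was higher on all arrays (Gsta1, 0.27 ± 0.16) and 1 lower, and Nqo1, a quinone reductase, averaged 0.39 ± 0.53 (SD, n = 4).

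Lists of conjugating enzymes and transporters held genes on both sides of 0. Their counts stand beside the same shares of all genes, 7.17% higher and 8.41% lower on all arrays. Of 16 UGT, SULT and acetyl or methyl transferases, 1 was higher on all arrays (Nat2, 0.31 ± 0.20) and 1 lower (Sult1c2, -0.44 ± 0.41), with a median log2 ratio of -0.02. Of 21 glutathione transferases and glutathione synthesis genes, 3 were higher and 2 lower on all arrays, with Gstm5 at -0.38 ± 0.18 and a median of -0.09. Of 24 other phase I enzymes, 1 was higher (Aldh1a7, 0.40 ± 0.18) and 1 lower (Akr1b8, -0.52 ± 0.29), with a median of -0.11. Of 19 drug transporters, 2 were higher on all arrays and 0 lower, with Abcb1a, the P-glycoprotein pump, at 0.62 ± 0.55 and a median of 0.10. Of 31 genes of other P450 families 23 were detected, and 4 were lower on all arrays, beside 7 of the 40 genes examined above. Among the 4 were the sterol hydroxylases Cyp27a1, at -0.58 ± 0.13, and Cyp39a1, at -0.24 ± 0.11 (SD, n = 4 for each).

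The authors' deposited table listed 3 transcripts of families 1 to 3 as higher, of 328 listed higher in all. It listed 4 as lower, of 277 in all. The higher ones had average linear ratios of 8.17 for Cyp2a5, 3.94 for Cyp2a4 and 3.31 for Cyp2e1 in the authors' deposited table. Its arrays are numbered 1 to 4, and each of the 3 averages held 2 arrays listed at 1. The genes with the 4 log2 ratios most like those of Cyp3a25, by root mean square difference over 4 arrays, were Pnp (0.13), Tmem37 (0.14) and Plin2 (0.17). Those most like Cyp3a44 were Arl15 (0.31), Sprr2k (0.35) and Tmem143 (0.38), and those most like Nr1i2 were Pycrl (0.12), Prpf19 (0.13) and Cyp27a1 (0.13).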

How the data were processed

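RNA of 4 pairs of Tlr2 knockout and wild-type colonic mucosa was read on 2-colour Agilent arrays, and the methylation arrays were not used here. Agilent Feature Extraction made the spot intensity values used, the median and the processed signals. Its version reads 10.5.1.1 per the file headers, whereas the submitters' processing notes give 8.5.1.1, and the discrepancy stands. Per the file headers, which name mm9, processed intensity had background removed and each channel multiplied by 1 dye factor. Within 0.001, 86.2% of spots had a deposited log10 ratio of Cy5 over Cy3 equal to that of the processed signals, and the deposited ratio served for this comparison alone. The authors' tables hold deposited linear ratio values, and the sources used here do not give their normalization. Depth does not apply to arrays, whose number limits the precision.

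Median signals went through limma 3.58.1 in R 4.3.3, with normexp (offset 50) and then loess. Weight 0 was given to control spots, outlier spots were removed, spots of a probe were averaged and ratios were turned to knockout over wild type by the labelled dyes. The brightest kept probe stood for its gene. Of 41174 probes, 25111 had a symbol from their accession or, for 14, from the authors' tables. The fit had a dye intercept, 2 residual degrees of freedom and Benjamini-Hochberg adjustment over 14698 genes. Per-channel levels were taken after loess and Aquantile. The procedure was tested on simulated data. The members, lists and tests were chosen with earlier results of these data known. Named were the listed members, other genes past the fold rule or of 1 direction on all arrays, up to 6 more by smallest p, and up to 4 per list. Cyp2f2, Cyp2c40, Cyp2d26, Cyp2a4, Cyp2c66, Cyp2c39, Cyp2j9 and the T and NK cell genes were picked with their values in view. A total of 13 alternatives were planned and 1 was added after seeing the data.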

Additional observations from a re-analysis of the deposited data

Results flagged for a closer look

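In 7 of 58 genes checked, 1 array lay so far from the other 3 that its gap to the nearest, as a share of the range, exceeded Dixon's 95% critical value for 4 samples, and chance flags about 1 in 20 genes. The log2 ratio of knockout over wild type in pair 4 was 0.92 for Nr1i3, against -0.20 to -0.01 in the other pairs. It was 0.42 for Cyp2c70 in pair 4, against 0.22 to 0.24. Cyp2g1 had 1.19 in pair 2, against -0.06 to 0.14, and Cyp2a4 had 1.01 in pair 2, against -0.11 to 0.04. Gstm5 had -0.12 in pair 1, against -0.48 to -0.46, and Gstt2 had 0.13 in pair 1, against -0.68 to -0.56. Akr1b8 had -0.95 in pair 4, against -0.42 to -0.33.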

How the results depend on the processing

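With 1 array left out, values here are fitted log2 ratios that weight the dye orientations equally, not plain means. The fit changed sign for Cyp3a11 without pair 1 (0.058, range -0.62 to 0.058), although the plain mean stayed at -0.017, and for Nr1i3 without pair 4 (-0.096, range -0.096 to 0.41). It also did for Cyp2a4 and Cyp2d26 without pair 2 (-0.037, range -0.037 to 0.52, and 0.15, range -0.87 to 0.15), Cyp2c66 without pair 4 (0.030, range -0.68 to 0.030), Cyp2c40 without pair 5 (0.080, range -1.15 to 0.080) and Cyp2c39 without pair 1 or 5 (0.0051 and 0.11, range -0.43 to 0.11). Cyp2j9, at 0.0080 in the reported fit, changed sign with no background correction (-0.0074), processed signals (-0.0020), median centring (-0.094) and no offset (-0.021), and without pair 1 (-0.27) or 5 (-0.14), with a range of -0.27 to 0.29. Tlr2 passed limma's threshold with processed signals (adjusted p = 0.0042), no dye term (0.027), no offset (0.045) and median centring (0.046), and had 0.051 to 1.00 otherwise. The number of genes called by limma over all genes, 0 in the reported fit, was 1 with no background correction, processed signals, median centring or the strict filter, and 3 with no dye term or normexp without an offset. It was 0 with any 1 array left out. Of the P450 genes and receptors, the count lower by the fold rule was 3, but 5 with processed signals (adding Cyp3a41a and Cyp2c54). Using no offset added Cyp3a41a alone. The count was 1 with a 2-fold rule (Cyp3a44) and 1 to 3 with 1 array left out. Without pair 1 it was Cyp2d26, and without pair 4 it was Cyp3a25, Cyp2c40 and Cyp2f2. The count higher by the rule was 0, but 2 with processed signals (Cyp2b9 and Cyp2c70), 1 with no background correction (Cyp2a5) and 0 to 1 with 1 array left out. The count higher on every array was 1, but 3 with processed signals, 2 with no background correction and 0 with median centring. With 1 array left out, where fewer arrays have to share a direction, it was 2 to 5. The count lower on every array was then 7 to 13. The shares of all genes with 1 direction under these settings are not given here, so these counts are not read as a result about these genes. Over all genes the rule gave 112 higher and 103 lower, against 292 and 267 with processed signals, 45 and 291 with median centring, 181 and 155 with no offset, 40 and 36 with a 2-fold rule, and 93 to 389 and 82 to 493 with 1 array left out. The cause of these changes was not tested. With the mean of all probes Cyp3a25 averaged -0.48 and did not pass the rule. No paired analysis was possible beyond the reported fit because that fit, on the ratio of the knockout and wild-type sample of each array, is already the paired one. Dim signal limits Cyp1a1, Cyp2b10 and the size of the Cyp3a ratios.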
